A study of Drosophila melanogaster with 4 samples.

Results

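Chromosome 4 of Drosophila melanogaster was examined at 1 kb scale for stretches in which HP2 was called enriched, called domains here, and for the stretches between them, called gaps. All bins of 1 kb of this chromosome were taken, whatever their values: 1352 bins (the last of 857 bp) of the 139719 bins of the FlyBase r5 assembly without its Uextra scaffold. All enriched regions (clusters) on the chromosome were taken as well, which were 86 of 4728 in replicate 1, 96 of 4163 in replicate 2 and 81 of 7037 in the authors' combined list. HP2 had been precipitated with the antibody Ab2-90 from adult fly head nuclei in 2 ChIP samples, each with 1 input sample of its own. The 4 samples share one wild-type strain, Oregon-R, and are labelled as mixed adults, with no transgene or treatment named. Heads were sieved from flies of population cages, so each sample pools many flies and all cell types of the head. No label ties the replicates to separate fly collections, and their spread may therefore be only technical. The lists hold neither counts nor transcripts, so depth is unknown and the labelled tissue could not be checked against marker genes.

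HP2, encoded by Su(var)2-HP2, is a chromosomal protein that binds HP1a, the protein that gives heterochromatin its compact form by binding methylated histone H3. Loss of either protein relieves the silencing of reporters placed in or near heterochromatin. Chromosome 4 is a small autosome on which heterochromatin proteins and active genes lie interspersed. Its genes include ci, a transcription factor of the Hedgehog pathway, and ey, a regulator of eye development. Pof, a protein that coats the genes of this chromosome, and the histone methyltransferase Eggless are also known for their roles there. Which of its genes lie in the domains below was not analysed here.

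At 1 kb, most bins of chromosome 4 lay wholly inside or wholly outside clusters. Every cluster there was longer than a bin (at least 1001 bp), so a bin could be partly covered only at a cluster edge. In replicate 1, 879 of its bins (65.0%) lay wholly in clusters, 320 (23.7%) held no cluster base and 153 (11.3%) were partly covered. In replicate 2 the numbers were 863 (63.8%), 322 (23.8%) and 167 (12.4%). A low share of partly covered bins was not particular to this chromosome. Its mean over the replicates was 11.8% on chromosome 4. Over the 2 Mb next to the centromere of each long arm it was 4.0% (X) to 17.4% (3L), and over the rest of the arms 4.66% to 6.14%. The combined list covered 969 bins (71.7%) wholly. Over the whole assembly, wholly covered bins made up 6.77% in replicate 1, 6.38% in replicate 2 and 9.6% in the combined list. A bin with at least 50% of its bases in clusters was called a domain bin and any other a gap bin. Chromosome 4 had 979 domain bins in replicate 1 (72.4%, against 10.2% of all bins of the assembly), 967 in replicate 2 (71.5%, against 9.37%) and 1062 in the combined list (78.6%, against 14.7%). The mean over the replicates was 72.0% ± 0.63 (SD, n = 2). Both replicates are of 1 condition, so no test between groups exists here, and an exact sign-flip permutation over 2 replicates cannot go below p = 0.5.

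**Figure D1:**
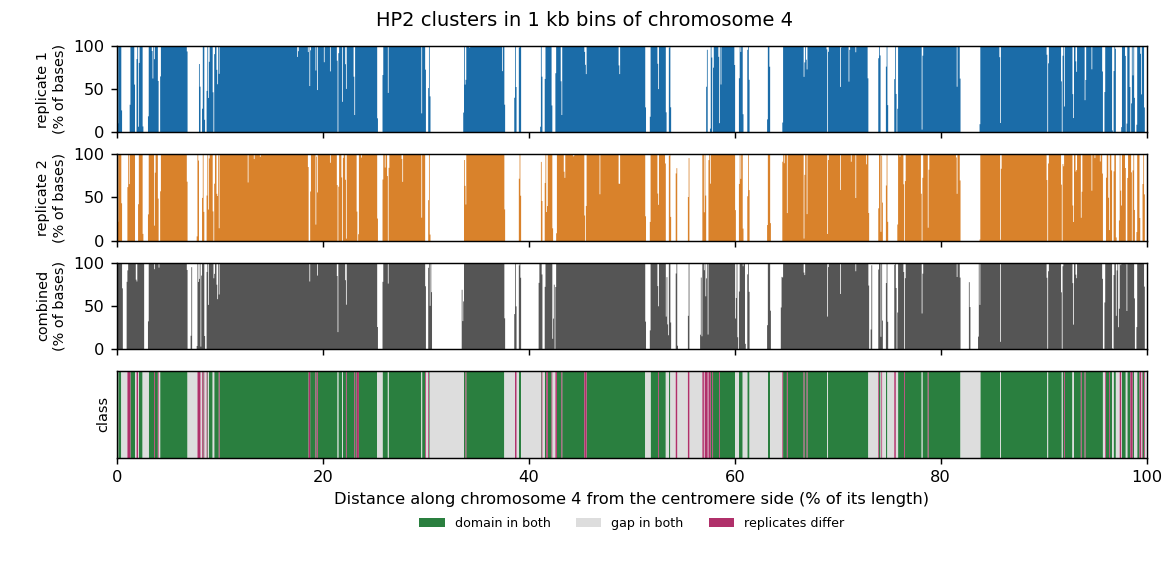
Percent of bases in HP2 clusters in each 1 kb bin of chromosome 4 for replicate 1, replicate 2 and the combined list (upper 3 rows), and the class of each bin (bottom row). The horizontal axis runs from the centromere side to the telomere side in percent of the chromosome's length; 933 bins are domain in both replicates, 339 are gap in both and 80 differ.

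The replicates put most bins in the same class: 933 were domain bins in both (69.0%, against 8.07% of all bins) and 339 were gap bins in both (25.1%). The agreement was thus 94.1% of bins, and Cohen's kappa, which allows for the share of domain bins in each list, was 0.85. In 1185 bins (87.6%) the percent of covered bases differed by at most 10 points between replicates. The replicates differed in class in 80 bins (5.92%, against 3.41% of all bins), of which 46 were domain bins in replicate 1 only and 34 in replicate 2 only. Only 18 bins were wholly covered in one replicate and empty in the other.

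The 933 bins that were domain bins in both replicates formed 68 domains with a median length of 5 kb and a range of 1 to 117 kb. Their lengths were very unequal. The 17 domains of 20 kb or more held 74.6% of all domain bases, whereas the 29 domains under 5 kb held 0.536% (5 domains of 1 kb) and 7.40% (24 of 2 to 4 kb). The 339 common gap bins formed 54 gaps with a median of 3 kb and a range of 1 to 45 kb. Of these, 17 were single bins and together made up 5.02% of gap bases, while the 10 longest gaps held 61.4%.

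**Figure D2:**
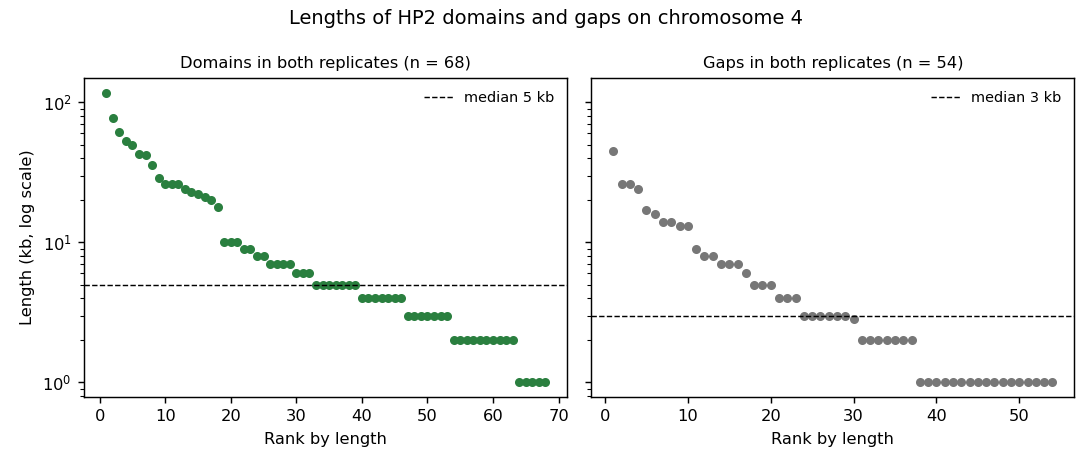
Lengths in kb (log scale) of the 68 domains and the 54 gaps common to both replicates, ranked from longest to shortest, with dashed lines at the medians of 5 and 3 kb. A minority of long members stands above many short ones on both sides.

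The longest domain ran for 117 kb from 134001 to 251000. Its bases were 99.8% covered in replicate 1, 99.5% in replicate 2 and 100% in the combined list. Domain bins were defined by their coverage, so such shares describe how few seams a domain had rather than support it. The cluster start nearest to its left side was at 133719 in replicate 1 and 133850 in replicate 2. The cluster end nearest to its right side was at 250834 and 250857. In replicate 1 these positions did not end the domain bins, which went on past both sides. From 133001 to 134000 replicate 1 covered 68.2% and replicate 2 15.1%. From 251001 to 253000 the shares were 77.05% and 0%. Replicate 1 had called the 117 kb domain in 3 clusters, replicate 2 in 4 and the combined list in 1. The domain broke into shorter ones under stricter settings. The longest domain on the chromosome measured 64 kb when a domain bin had to be 90% covered, and 79 kb in bins of 500 bp.

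The second domain spanned 77 kb from 616001 to 693000, where clusters took up 99.3% of bases (replicate 1) and 98.5% (replicate 2). Its right edge differed by only 6 bp, at 693295 and 693289. The third, of 61 kb from 1160001 to 1221000, was a single cluster in every list and was 99.8% and 99.3% covered in replicates 1 and 2. Of the 10 longest domains, this one and that from 56001 to 92000 were called as 1 cluster in each of the 3 lists. The domain from 933001 to 986000 (53 kb) was the most broken of the 10, with 4 clusters in replicate 1 and 5 in replicate 2, at 97.3% and 97.8% coverage.

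The other 6 of the 10 longest domains were of 26 to 50 kb. They ran from 458001 to 508000 (50 kb), 356001 to 399000 (43 kb), 1065001 to 1107000 (42 kb), 56001 to 92000 (36 kb), 584001 to 613000 (29 kb) and 263001 to 289000 (26 kb). A domain of 26 kb from 906001 to 932000 and another from 1133001 to 1159000 tied with the last of these in length. Across the 10 longest, coverage was at least 97.3% in replicate 1 and 97.7% in replicate 2. Edges were taken as the cluster start or end nearest to each side. Beside bins of differing class, domain bins of 1 replicate could go on past such an edge. Of the 20 edges of these domains, 9 lay within 100 bp of each other in the 2 replicates and 17 within 500 bp. The exceptions included 2 edges more than 1 kb apart. Where a common domain met a common gap, both replicates changed class between the same bins. That rule by itself keeps such edges near each other, so their closeness describes the edges and is no separate support. The left edge of the 42 kb domain was at 1057110 in replicate 1 and 1065175 in replicate 2, where a short space in replicate 2 parted what replicate 1 called as 1 cluster. The cluster start nearest to the left side of the 29 kb domain was 583794 in replicate 1 and 587269 in replicate 2, which called this domain in 3 clusters.

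The longest gap ran for 45 kb from 410001 to 455000. Clusters covered 1.46% of it in replicate 1, 0.173% in replicate 2 and 8.31% in the combined list. It began at a cluster end at 410422 in replicate 1 and 410078 in replicate 2, and ended at a cluster start at 454766 and 455063. Each of its edges thus differed by less than 0.5 kb between replicates. Absence from the lists means that no enrichment was called there; it does not show that HP2 is absent.

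The next gaps were of 26 kb, from 530001 to 556000 and from 1107001 to 1133000. The first was 0.292% covered in replicate 1, 0% in replicate 2 and 10.7% in the combined list, and the second 0.388%, 0.0808% and 11.3%. The gap of 24 kb from 830001 to 854000 had the closest edges of the 4 gaps of 20 kb or more, with a left edge at 829613 and 829591 and a right edge at 853844 and 853813. It also stayed nearly empty in the combined list, at 1.18%. Together these 4 gaps, the longest included, held 35.7% of gap bases. Common domains lay on both sides of each of them, which by itself keeps their edges in the 2 replicates near each other.

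The remaining 6 of the 10 longest gaps measured 13 to 17 kb. They lay from 751001 to 768000, 857001 to 873000, 508001 to 522000, 735001 to 749000, 92001 to 105000 and 986001 to 999000. Coverage in the 10 was at most 5.23% in replicate 1 and 2.63% in replicate 2, and 5 of them in replicate 1 and 2 in replicate 2 held no cluster base. Their edges lay further apart than those of the 10 longest domains. Over all gaps and all domains this did not hold, with medians of 232.5 bp and 250 bp. Of 20 edges, 12 lay within 500 bp of each other in the 2 replicates and 6 lay more than 1 kb apart, with a median of 462 bp. The neighbouring gaps at 735001 and 751001 were parts of one longer space in replicate 1, which called nothing between a cluster end at 726296 and a cluster start at 773468. Replicate 2 called clusters inside that space, and so split it. The edges of both gaps were among those more than 1 kb apart. For the gap at 751001, the nearest cluster end in replicate 1, at 774959, lay beyond its right side.

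Of the 10 longest gaps, 7 lay between 400001 and 900000, in the middle of the chromosome. This stretch was chosen after the values were seen, and its share of all gaps was not computed. It was not thinly covered throughout and held the 50 kb domain from 458001 to 508000. Over the whole chromosome, common domain bins made up 69.0% and common gap bins 25.1%. In windows of 100 kb, common domain bins numbered 49 of 100 from 400001 to 500000 and 41 of 100 from 500001 to 600000, with 48 and 50 gap bins. The window from 700001 to 800000 had 40 domain bins and that from 800001 to 900000 had 47. Between these pairs, the window from 600001 to 700000 held 90 domain bins, and on the centromere side that from 200001 to 300000 held 94, with 2 gap bins. The pattern of 2 thinly covered zones around a filled one was seen in each list: coverage from 600001 to 700000 was 92.3% in replicate 1, 90.1% in replicate 2 and 93.5% in the combined list, and in the 4 thin windows it was at most 51.1%, 51.7% and 58.2%.

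Both ends of the assembled chromosome lacked long domains. The 50 kb at the centromere side (low coordinates) held 4 whole domains, none over 7 kb, and the 50 kb at the telomere side held 7, none over 5 kb. Coverage of the centromere-side end was 51.4% in replicate 1, 55.5% in replicate 2 and 76.5% in the combined list. Coverage of the telomere-side end was 55.2%, 52.3% and 78.1%. The first domain of 20 kb or more began at 56001 and the last ended at 1294000, after which 8 domains of at most 5 kb followed. These limits were chosen after the values were seen.

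A few short domains also stood alone inside long gaps. With at least 5 kb of common gap on either side, 3 domains under 5 kb were found. That from 854001 to 857000 lay between gaps of 24 and 16 kb; its edges were at 853844 and 856764 in replicate 1 and at 853813 and 857210 in replicate 2. Its score was 0.821 in replicate 1, 0.697 in replicate 2 and 0.671 in the combined list. The score is the authors' own value for each cluster, on a scale not given in the sources used here, and whether the lists share one scale is not known. Groups of clusters are compared only within a list, and values of both replicates are given side by side. The second, from 827001 to 830000, scored 0.650 and 0.549 in replicates 1 and 2, and the third, from 1009001 to 1011000, scored 0.615 and 0.389. All 3 scored below the median of the chromosome's clusters in each replicate (0.836 in replicate 1 and 0.858 in replicate 2). Those medians are over all cluster lengths, and score rose with length. The chromosome's clusters of 2 to 5 kb had medians of 0.808 in replicate 1 and 0.751 in replicate 2. In replicate 1 the first domain, at 0.821, lay above that median.

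Edges of single clusters were compared within a tolerance of 1 kb, so their shares cannot be set against those of the bins. Of the 172 cluster edges of replicate 1, 125 (72.7%) had an edge of the same side within 1 kb in replicate 2, and 54 (31.4%) within 100 bp. Of the 192 edges of replicate 2, 125 (65.1%) had a counterpart within 1 kb in replicate 1. Agreement was highest where a cluster faced a long open space, but did not rise steadily with the space in replicate 1. For edges with at least 5 kb free of clusters beyond them, 31 of 36 (86.1%) in replicate 1 and 28 of 36 (77.8%) in replicate 2 had a counterpart. For edges facing 1 to 5 kb of space it was 41 of 61 (67.2%) in replicate 1 and 58 of 79 (73.4%) in replicate 2. Edges facing a space under 1 kb had one in 53 of 75 cases (70.7%) in replicate 1 and 39 of 77 (50.6%) in replicate 2.

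Both percentages come from 1 comparison of 2 lists, so they have no replicate error. Counted in the same 2 directions, 66.9% of edges of replicate 1 and 68.2% of edges of replicate 2 had a counterpart on proximal 2R, and 70.0% and 70.5% on proximal 2L. Proximal here means the 2 Mb of an assembled arm that lie next to its centromere. On proximal 3L the shares were 62.0% and 58.2%. On the distal arms they were 65.3% to 74.4% for edges of replicate 1 and 86.4% to 92.5% for edges of replicate 2. Where edges lay within 1 kb of each other on chromosome 4, replicate 2 started a median of 37 bp further inward and ended 43 bp further inward than replicate 1.

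Around outer edges, coverage in the other replicate dropped within about 1 kb. At 11 edges of replicate 1 with a cluster of at least 5 kb inside and at least 5 kb of open space outside, replicate 2 covered 93.9% of the first 500 bp inside and 41.7% of the first 500 bp outside. From 500 to 1000 bp outside it covered 19.5%. At 10 such edges of replicate 2, replicate 1 covered 83.9% of the first 500 bp inside and 16.8% of the first 500 bp outside. The combined list reached further: from 1.5 to 2 kb outside the edges it still covered 34.2% around replicate 1 edges and 30.8% around those of replicate 2.

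**Figure D3:**
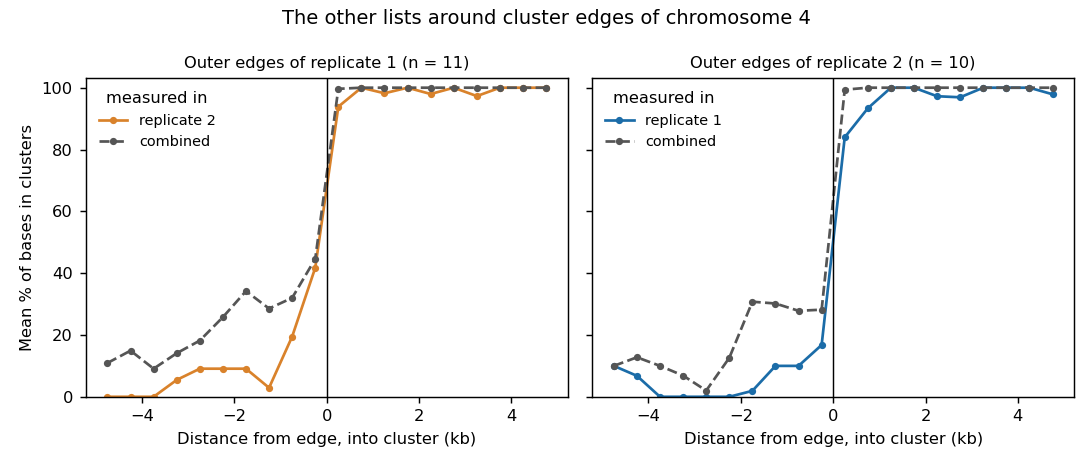
Mean percent of bases in clusters of the other replicate (solid) and of the combined list (dashed) in steps of 500 bp around outer cluster edges of replicate 1 (left, 11 edges) and replicate 2 (right, 10 edges) of chromosome 4. Positive distances lie inside the cluster; coverage passes from at least 83.9% just inside to at most 44.6% just outside.

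Many clusters of chromosome 4 were separated only by short seams, spaces under 1 kb. Replicate 1 had 37 of them among 85 spaces (43.5%), with a median of 449 bp, and replicate 2 had 38 among 95 (40.0%), with a median of 390 bp. Of the seams of replicate 1, 30 of 37 (81.1%) had an uncovered base within 1 kb in replicate 2, and of those of replicate 2, 22 of 38 (57.9%) had one in replicate 1. This measure is loose, since clusters covered only 71.7% (replicate 1) and 70.8% (replicate 2) of the chromosome. The share at other positions was not computed, so these counts do not show that seams were repeated. Replicate 2 covered 8 of the 37 seams of replicate 1 wholly and left 17 without a covered base, while replicate 1 covered 17 of the 38 seams of replicate 2 and left 7 uncovered. The combined list filled 23 of the 37 and 26 of the 38. Scores of the clusters on the 2 sides of a seam differed by a median of 0.651 in replicate 1 and 0.702 in replicate 2. Clusters parted by wider spaces were not compared, so this is not shown to be particular to seams.

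The 80 bins of differing class lay in 52 short runs of at most 4 kb. Of these runs, 25 (33 bins) lay between domains and 17 (24 bins) between a domain and a gap. The other 10 runs (23 bins) lay between gaps. Between domains, replicate 1 covered more of them (67.4%, against 39.0% in replicate 2), and between gaps replicate 2 covered more (48.4%, against 34.0% in replicate 1). The longest runs covered 4 kb each. From 13001 to 17000, replicate 1 covered 8.13% and replicate 2 82.1%. From 105001 to 109000 the shares were 33.2% and 48.3%, and from 771001 to 775000 they were 37.3% and 38.2%, because each replicate called a different part of the run. Of the 3 kb runs, one spanned 314001 to 317000, with a coverage of 99.97% in replicate 1 but 14.2% in replicate 2. Another spanned 613001 to 616000, with 80% and 23.5%. The combined list put 78 of the 80 bins in domains.

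The combined list kept every common domain bin and added clusters in the gaps. All 933 common domain bins were domain bins in it, and so were 51 of the 339 common gap bins (15.0%). Of the bases of common gap bins it covered 16.4%, against 2.76% in replicate 1 and 2.56% in replicate 2. This share depended on the definition of a gap bin: it was 9.86% where any cluster base made a domain bin, 27.4% with a threshold of 90%, and 23.5% or 25.2% where gap bins came from replicate 1 alone or replicate 2 alone. The combined list contained 99.8% of the bases of replicate 1 and 99.9% of those of replicate 2, and 53298 of its bases (5.05%) lay in neither. Its 16 clusters on chromosome 4 that touched no cluster of either replicate (of 81, 19.8%) were of 1001 to 2797 bp and held 21624 bp. The corresponding shares were 15.4% on proximal 2R, 23.5% on proximal 2L and 25.1% on proximal 3L. Of the 16 clusters, 13 lay within 2 kb of a cluster of a replicate. The share of all uncovered sequence that lies this near a cluster was not computed, so the count does not show special nearness. The median score of the 16 clusters was 0.408, and 0.868 was that of the 54 combined clusters that touched both. Their median lengths also differed, at 1239 and 9806 bp, and length and score were related in this list (Spearman rho 0.69). All 24 combined clusters under 2 kb on chromosome 4 had a median score of 0.357, so the 16 are not shown to score low for their length.

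Clusters on chromosome 4 ran together more than in the proximal 2 Mb of the long arms. Those fixed stretches also take in thinly covered sequence. Bins without a cluster base made up 30.45% and 29.5% of proximal 2R in replicates 1 and 2, 59.55% of proximal 2L in both, and 55.2% and 49.45% of proximal 3L. Their part in the differences below was not tested, and the heterochromatin scaffolds were not compared. Among bins with at least 1 cluster base, 84.5% ± 0.98 were wholly covered on chromosome 4, against 81.0% ± 0.59 on proximal 2R, 71.0% ± 0.70 on proximal 2L and 63.4% ± 1.34 on proximal 3L (SD, n = 2 each). The difference from proximal 2R was larger than the spread between replicates and had the same sign in both, at 85.2% against 80.6% in replicate 1 and 83.8% against 81.4% in replicate 2. The means of the distal arms, proximal 3R and proximal X lay between 36.5% and 40.9%. Per Mb in clusters there were 94.5 ± 8.12 clusters on chromosome 4, against 112 ± 3.26 on proximal 2R, 185 ± 4.76 on proximal 2L and 241 ± 12.2 on proximal 3L. Both measures follow from cluster lengths, so they are not separate findings.

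**Figure D4:**
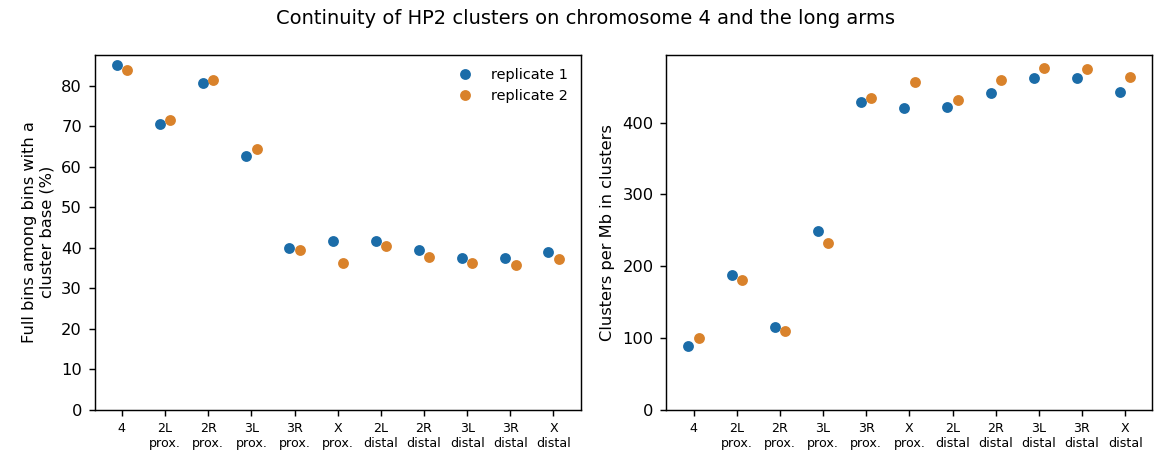
Percent of wholly covered bins among 1 kb bins with any cluster base (left) and clusters per Mb in clusters (right) for chromosome 4 and the proximal 2 Mb and the distal rest of each long arm; each point is 1 replicate. Chromosome 4 has the highest share of wholly covered bins (85.2% and 83.8%) and, at 88.8 and 100.3, the lowest number of clusters per Mb.

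Domains common to both replicates showed the same order. Those of 20 kb or more held 74.6% of domain bases on chromosome 4, 54.2% on proximal 2R, 34.4% on proximal 2L and 29.6% on proximal 3L. The longest domain of proximal 2R, at 111 kb, nearly equalled the 117 kb of chromosome 4. The longest gap was shorter on chromosome 4, at 45 kb, against 161 kb on proximal 2R, 150 kb on proximal 2L and 91 kb on proximal 3L, whose 2 Mb also take in sequence beyond their densely covered stretch. Cohen's kappa between replicates was 0.85 on chromosome 4, 0.84 on proximal 2R and on proximal 2L and 0.72 on proximal 3L. No test over arms was made, since arms of 1 genome are not replicates.

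Domains of 20 kb or more also carried higher median scores than shorter ones. Weighted by bases, the median score of these 17 domains was 1.84 in replicate 1 and 1.85 in replicate 2. The 22 domains of 5 to 19 kb had medians of 0.864 and 0.858, and the 29 domains under 5 kb had medians of 0.704 and 0.740. A domain's score is that of the clusters overlapping it, which can reach beyond it. Length and score were related across the chromosome's clusters (Spearman rho 0.71 over 86 clusters in replicate 1 and 0.77 over 96 in replicate 2, as a description across clusters of 1 library). The domain from 56001 to 92000 scored 2.51 in replicate 1, the highest of all domains there, and 2.65 in replicate 2. The highest in replicate 2 was that from 1034001 to 1056000, with 2.72, and its score in replicate 1 was 2.24. At the other extreme, the domain from 263001 to 289000 scored 0.796 and 0.758, the lowest among those of 20 kb or more in both replicates. Over 64 clusters matched between replicates (50% of both), scores had a similar order, with a Spearman rho of 0.94 as a description.

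Compared at equal length within each replicate, clusters of chromosome 4 had lower median scores than those of the distal long arms, except for the shortest. Under 2 kb the median was 0.509 on chromosome 4 (16 clusters) and 0.455 on the distal arms (1223) in replicate 1, and 0.538 (17) and 0.458 (1017) in replicate 2. From 2 to 5 kb it was 0.808 (27) and 0.866 (2031) in replicate 1 and 0.751 (34) and 0.856 (1540) in replicate 2. From 5 to 10 kb the medians were 0.767 (19) and 1.03 (34) in replicate 1, and 0.858 (18) and 1.52 (22) in replicate 2. At 10 kb or more they were 1.76 (24) and 3.21 (3), and 1.98 (27) and 3.31 (2).

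Weighted over these classes, the score of chromosome 4 minus that of the distal arms averaged -0.50 ± 0.035 (SD, n = 2), with -0.47 for replicate 1 and -0.52 for replicate 2. The size rested on the few distal clusters of 10 kb or more. Without that class, a choice made after seeing the data, the mean was -0.15, and against the 10 distal clusters nearest in length to each cluster of chromosome 4 it was -0.14. In the combined list the sign was the opposite, at 0.15, with a median of 1.79 on chromosome 4 (22 clusters) and 1.07 on the distal arms (6) at 10 kb or more. Against proximal clusters the difference was -0.091 in replicate 1, 0.074 in replicate 2 and 0.14 in the combined list. It was below 0 in both replicates by the other ways of matching, at -0.089 and -0.070 against the nearest clusters in length and -0.059 and -0.040 without clusters of 10 kb or more. The sign of the difference from proximal clusters thus depended on the matching and the list.

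**Figure D5:**
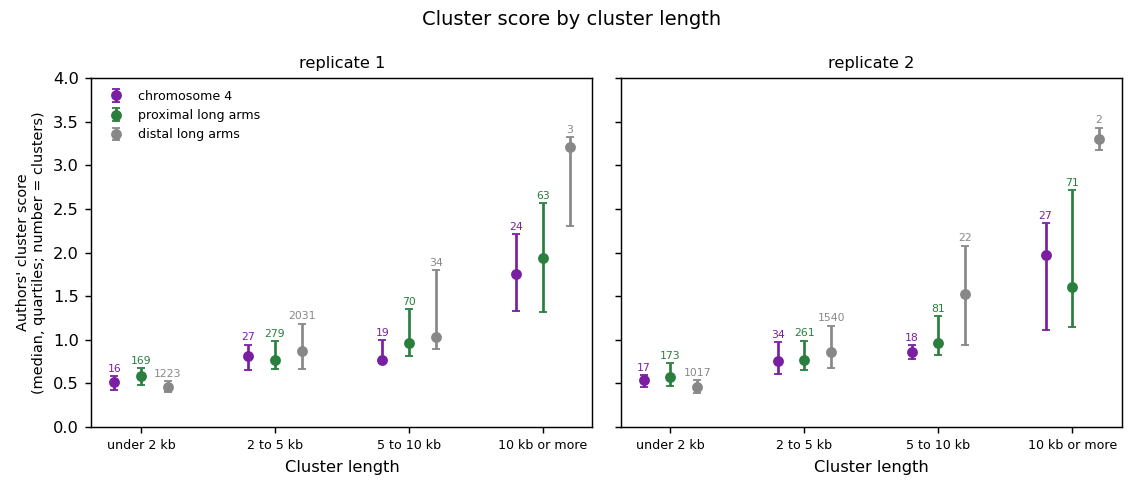
Authors' cluster score (median with quartiles) by cluster length for chromosome 4, the proximal 2 Mb of the long arms and their distal rest, in replicate 1 and replicate 2; numbers above the bars are clusters. From 2 kb upward the medians of chromosome 4 lie below the distal ones in both replicates, with 3 and 2 distal clusters at 10 kb or more.

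The clusters of highest score were mostly parts of the long domains. In replicate 2, all of the top 5 were at least 99.5% covered in replicate 1: from 969603 to 983399 (score 3.03), 1034306 to 1055549 (2.72), 320507 to 341263 (2.70), 56424 to 91688 (2.65) and 187354 to 250857 (2.42). In replicate 1, 4 of the top 5 were at least 92.4% covered in replicate 2: from 950014 to 960592 (2.69), 969548 to 985630 (2.64), 56349 to 91940 (2.51) and 314957 to 341169 (2.37). The top cluster of replicate 1 was not. It spanned 1432 bp from 613355 to 614786 with a score of 2.98, and replicate 2 covered 0% of it. Bases of all common domain bins were 98.3% covered in replicate 1 and 97.8% in replicate 2. High coverage of the other top clusters is therefore not shown to be particular to their scores.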

How the data were processed

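Per the submitters' processing notes, reads were aligned with Bowtie 0.12.7. The authors deposited 3 lists of regions of significant enrichment, 1 per ChIP replicate and 1 from the replicate set, each region with a start, an end and a score, per the file headers on FlyBase r5. The deposited score has no stated scale; details of the caller, its threshold and the combined list were not given in the sources used here. No cluster of chromosome 4 ran past its end. Overlapping bases were counted once. Bins of 1 kb started at position 1; a domain bin had at least 50% of its bases in clusters. Domains and gaps are runs of bins of one class in both replicates. Named were the 10 longest domains and gaps, the 5 longest runs of differing bins and the 5 top scores per replicate; others were chosen after their values were seen. Members and rules were chosen with earlier results of these data known. Length classes were under 2, 2 to 5, 5 to 10 and at least 10 kb. Values over replicates are means with the SD (n = 2). Functions were tested on simulated lists. Alternatives were other bin sizes, thresholds, bin starts, cluster selections, edge tolerances and length matching. Inputs enter only through the authors' calls. No genome on r5 was used here, so no sequence is shown, and the gene table, on Release 6, served only to check gene names. Python 3.11.15, numpy 2.4.6, pandas 2.3.3, scipy 1.17.1 and matplotlib 3.10.9 were used.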

Additional observations from a re-analysis of the deposited data

How the results depend on the processing

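The numbers of domains and gaps stayed within 1.5 times their values under all 10 settings each. The share of domain bins (72.0%) became 76.3% when any base made a domain bin, 66.3% with a threshold of 90%, 71.2% in bins of 500 bp, 65.2% with high-scoring clusters (scores no lower than their list's median), 78.6% in the combined list and 72.6% with clusters within 1 kb merged. Bin agreement (94.1%) became 92.5% at 90% and 91.2% with high-scoring clusters. The longest domain (117000 bp) became 64000 bp at 90%, 79000 bp in bins of 500 bp and 172000 bp in the combined list; the longest gap (45000 bp) became 43000 bp with any base, 54000 bp with high-scoring clusters and 39000 bp in the combined list. Combined coverage of gap bins (16.4%) became 9.86% with any base, 27.4% at 90% and 18.1% in bins of 2 kb. Edge agreement (68.9%, the mean of both directions of 1 comparison) became 61.4% with high-scoring clusters, 61.7% within 500 bp and 74.4% within 2 kb. The score difference from distal clusters at equal length (-0.50) became -0.75 with high-scoring clusters, -0.14 with nearest distal clusters, -0.0085 against proximal clusters, -0.15 without clusters of 10 kb or more (chosen after seeing the data) and was reversed, 0.15, in the combined list. Thresholds, bin sizes and tolerances move these values by construction; for the other settings the cause was not tested. From 1 replicate alone, domain bins were 71.5% or 72.4%, domains 56 or 68, the longest domain 117000 or 135000 bp, gaps 57 or 69, the longest gap 45000 or 47000 bp, combined coverage of gap bins 23.5% or 25.2% and the score difference -0.47 or -0.52; a gap bin then needs only 1 list, so the gap values widen. No paired analysis was possible because the replicates are of 1 group and inputs had no values of their own here. Unknown depth limits the calls: a gap is a stretch without a call.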

Other observations

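On chromosome 4 some of the highest scores belonged to short clusters that the replicates did not share. In the combined list the top score of the chromosome, 2.70, belonged to a cluster of 1357 bp from 1323898 to 1325254, which touched no cluster of either replicate and lay 9 bp from the nearest one. Another cluster of this kind, of 1083 bp from 12218 to 13300, scored 1.92 and ranked 12 of 81 in the combined list, 76 bp from the nearest cluster of a replicate. These were chosen after their values were seen. The lowest of the 16 such clusters scored 0.189.

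All 81 starts and all 81 ends of combined clusters on chromosome 4 were even numbers, against 48 of 86 starts in replicate 1 and 48 of 96 in replicate 2.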
